A study of Oryza sativa with 12 samples.

Results

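Expansins are proteins of the plant cell wall, and xyloglucan endotransglucosylase/hydrolases (XTH) are wall enzymes. The genes described here were those whose symbol or synonym in the gene table carries an expansin name (EXP, EXPA, EXPB, EXLA or EXLB with a number) or an XTH, XTR or XET name. Of the 50 genes with such a name, 30 had a probe set of their own on the array, out of 17905 genes with one. These 30 were 14 alpha-expansins (EXPA), 11 beta-expansins (EXPB), 4 expansin-like A genes (EXLA) and 1 XTH gene, XTH8, so nearly all values concern expansins. Where a gene had several probe sets, the brightest was used.

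Stem bases were taken from seedlings of rice (Oryza sativa, cultivar Taichung 65) at 8 days of age; they are the zone in which crown roots arise. The groups were crl1 (crown root less 1), a mutant impaired in crown root formation, and its wild type, each sampled before auxin (0 h) and 2 h and 4 h after it, so that 12 arrays form 6 groups of 2. The auxin was indole acetic acid at a final 1e-06 M, added to half-strength Murashige and Skoog liquid medium in which seedlings of both genotypes had stood for a day. Each extract pooled 20 stem bases, and the repetitions were independent runs of the experiment. No untreated plants of the later times were analysed here, and an effect of auxin and one of time cannot be told apart. The mutated gene itself, CRL1, a transcription factor of the LBD family, was not found by name in the gene table, and its level was not analysed here.

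Expansins loosen walls by weakening the noncovalent contacts between cellulose and the polysaccharides around it, without cutting them, and they act best at acid pH. Auxin acidifies the wall of growing shoot tissue, and expansins are the classical mediators of the resulting acid growth. Alpha-expansins act on walls in general, grasses have a large family of beta-expansins, and no wall-loosening activity is established for expansin-like A proteins. XTH enzymes cut xyloglucan chains and join them to other chains, and grass walls hold little xyloglucan.

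Values are MAS5 signals, linear brightness values that the authors scaled so that the trimmed mean was 100 on every array. Median signals of rice probe sets ran from 9.39 to 12.7. Background was the 95th percentile of 64 reporter probe sets on each array and ran from 5.83 to 18.5. The array that stood apart was repetition 2 of wild type at 2 h, which had a GAPDH 3' to 5' signal ratio of 35.5 (3.08 to 17.3 on the others) and an 18S rRNA signal of 639 (1401 to 2877 on the others). Results that rest on it are also given without it. Precision is limited by the few arrays, and in whole stem bases fewer expressing cells and less RNA per cell cannot be told apart.

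Among the 30 genes, 22 lay above background on all 12 arrays and 4 on none of them. The 25 that exceeded the array's median on at least 2 arrays were kept for the fit: 10 EXPA, 10 EXPB and all 4 EXLA genes, and XTH8. The 5 left out were EXPA4, EXPA26, EXPA31, EXPA32 and EXPB10, whose signals ran from 0.126 to 15.8 and passed background once, for EXPA31 on a wild type 4 h array. EXPA4, known from deepwater rice as a gene of elongating internodes, ran from 0.126 to 4.782. The signals of the other 25 by array are drawn in the map of all kept genes.

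**Figure D1:**
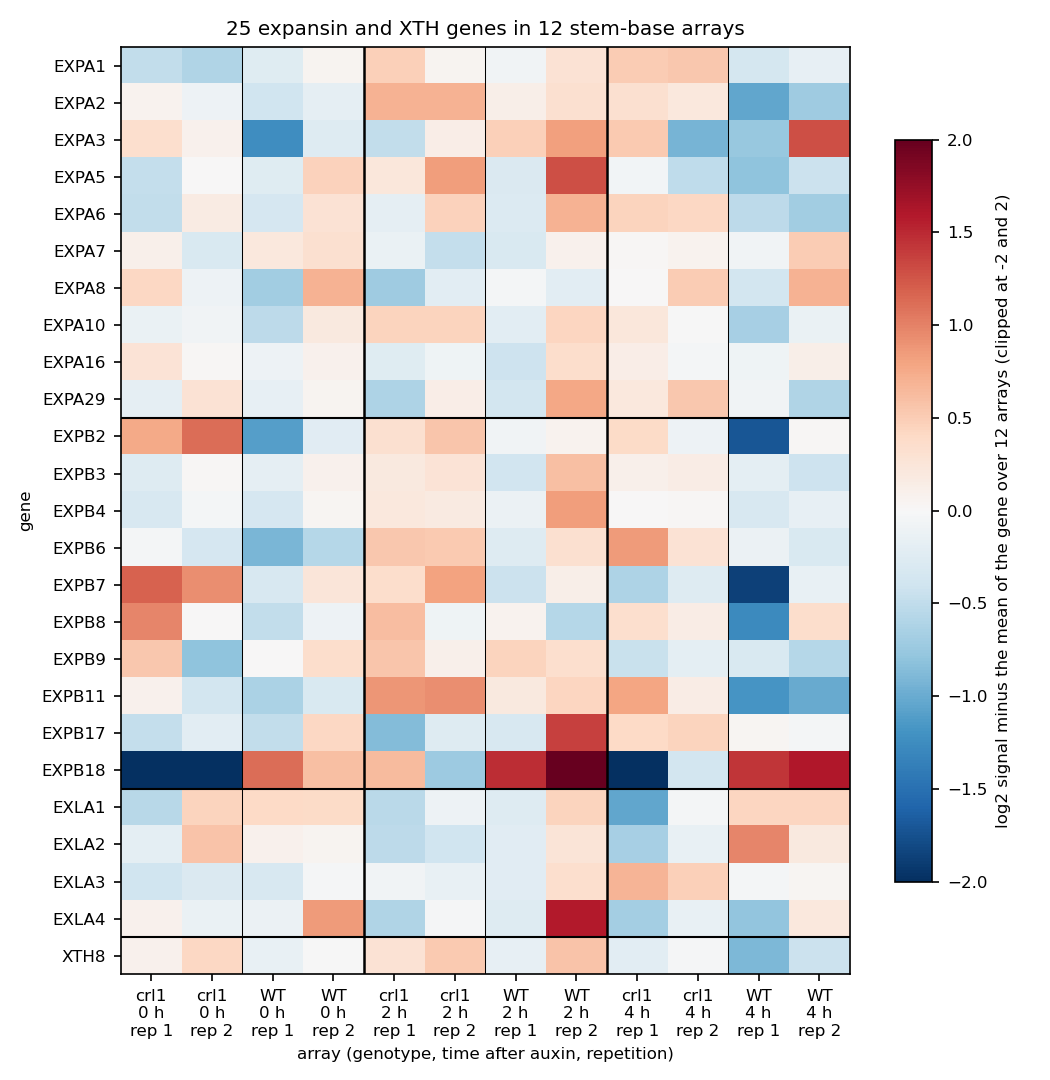
Log2 MAS5 signal of each of the 25 kept genes on each of the 12 arrays, as the difference from that gene's mean over all arrays (red higher, blue lower, clipped at -2 and 2). Columns run 0, 2 and 4 h, with crl1 left of wild type at each time. EXPB18 is blue in crl1 at 0 h and red in all 6 wild-type arrays, and EXPA2 and EXPB11 are blue in wild type at 4 h.

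The 6 genes with the brightest probe sets were EXPB3, EXPB4, XTH8, EXPA2, EXPB6 and EXPB11, although signals of different probe sets give no order of transcript levels. Several of them, EXPB3, EXPB4, EXPB6 and EXPB11 among the beta-expansins and EXPA2 among the alpha-expansins, are known from rice internodes, where gibberellin or submergence raises them. XTH8 is known as a gibberellin-responsive gene of rice leaf sheaths. EXPB3 (LOC4349349) ran from 3616 to 5213 in crl1, with a median of 4724, and from 3231 to 6586 in wild type, with a median of 3801. It gave 3616 and 4416 in crl1 against 3815 and 4581 in wild type at 0 h. At 2 h it gave 4954 and 5213 in crl1 against 3320 and 6586 in wild type, the 6586 on the array that stood apart. At 4 h it gave 4646 and 4803 in crl1 against 3787 and 3231 in wild type. EXPB4 (LOC4349350), whose probe set is of a type that can match several related transcripts, gave 1939 and 2338 in crl1 against 1905 and 2475 in wild type at 0 h, 2797 and 2743 in crl1 against 2235 and 4307 in wild type at 2 h, and 2420 and 2457 in crl1 against 1934 and 2154 in wild type at 4 h. The genotypes overlapped in EXPB4 at 0 h and 2 h, and its highest value came from the wild-type array that stood apart. EXPB4 was 0.02 ± 0.16 log2 units above wild type over the 3 times (SE, n = 6 arrays per genotype; limma adjusted p = 0.963). Without the array that stood apart this difference was 0.179 ± 0.105.

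The first comparison asked which of these genes differed between crl1 and wild type whatever the time. Signals were taken to log2 and each probe set was fitted with limma with 1 mean per group. P-values were adjusted by Benjamini-Hochberg over all 32524 kept probe sets, with a threshold of 0.05. Averaged over the times, 3 of the 25 genes passed, against 1.38% of all kept probe sets: EXPB18 was lower in crl1, and EXPA2 and EXPB11 were higher (0.455% of probe sets were called higher and 0.925% lower). At an unadjusted p under 0.05, 10 of 25 genes lay past the threshold, against 16.6% of probe sets. Over the whole group 16 of 25 genes lay above 0, with a median of 0.08 (0.03 over all probe sets), and with each array centred on its median 12 did and the median was -0.02. With 1 array left out the number ran from 11, without wild type 2 h repetition 1, to 18, without wild type 0 h repetition 2 or 4 h repetition 2, and the median from -0.01, without wild type 2 h repetition 1, to 0.22, without wild type 2 h repetition 2.

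EXPB18 (LOC4338206), a beta-expansin, gave 4.625 and 2.94 in crl1 against 57.4 and 40.1 in wild type at 0 h. At 2 h it gave 40.9 and 15.9 in crl1 against 73.7 and 109.1 in wild type, and at 4 h it gave 5.99 and 20.5 in crl1 against 71.3 and 80.4 in wild type. The genotypes did not overlap at any of the 3 times, an order that 3.42% of all probe sets showed. Averaged over the times the log2 fold change of EXPB18 was -2.76 ± 0.34 (SE, n = 6 per genotype; limma adjusted p = 0.00333). Both crl1 arrays at 0 h and 1 of 2 at each later time did not exceed background, so this value comes from the fitted signals as deposited and is no bound. At 0 h EXPB18 was at least 4.18-fold lower in crl1 when background stood in for the crl1 signals. Its difference was -2.69 in repetition 1 and -2.84 in repetition 2. With 16 added to each signal before log2, the difference was -1.57 ± 0.18 (adjusted p = 0.00155).

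EXPA2 (LOC4327568) gave 1478 and 1317 in crl1 against 1073 and 1239 in wild type at 0 h. It gave 2277 and 2284 in crl1 against 1521 and 1755 in wild type at 2 h, and 1757 and 1624 in crl1 against 682 and 859 in wild type at 4 h. Every crl1 array lay above both wild-type arrays of its time. The averaged difference was 0.63 ± 0.11 (limma adjusted p = 0.0205), which is 1.55-fold. It was 0.80 in repetition 1 and 0.46 in repetition 2.

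EXPB11 (LOC4330213) gave 943 and 690.5 in crl1 against 577 and 719 in wild type at 0 h, where the genotypes overlapped. It gave 1650 and 1702 in crl1 against 1024 and 1204 in wild type at 2 h, and 1537 and 989 in crl1 against 392 and 443 in wild type at 4 h. At both later times the genotypes were apart. The averaged difference was 0.83 ± 0.14 (limma adjusted p = 0.0219), 1.78-fold, and it was 1.12 in repetition 1 and 0.53 in repetition 2. When the arrays of a genotype and repetition were given a shared random effect, with an estimated correlation of 0.252, EXPA2 had an adjusted p of 0.0744 and EXPB11 of 0.0804, so that neither passed, while EXPB18 passed at 0.0308. With each of the 12 arrays left out in turn, EXPB18 passed in all 12 fits, EXPA2 in 4 and EXPB11 in 6.

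EXPB6 (LOC4349347) also kept the genotypes apart at every time, as 2.56% of probe sets did in the upward direction, but did not pass. It gave 1265 and 1030 in crl1 against 688 and 875 in wild type at 0 h, and 1877 and 1857 in crl1 against 1082 and 1625 in wild type at 2 h. At 4 h it gave 2341 and 1582 in crl1 against 1199 and 1050 in wild type. Its averaged difference was 0.61 ± 0.15 (limma adjusted p = 0.0792; 0.0348 to 0.273 over the alternatives, with a pass only under quantile normalization and without either wild type 2 h array), and it was 0.88 in repetition 1 and 0.34 in repetition 2. The largest averaged difference above 0 was that of EXPB2, 1.01 ± 0.27 (adjusted p = 0.106), whose genotypes overlapped at 4 h.

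**Figure D2:**
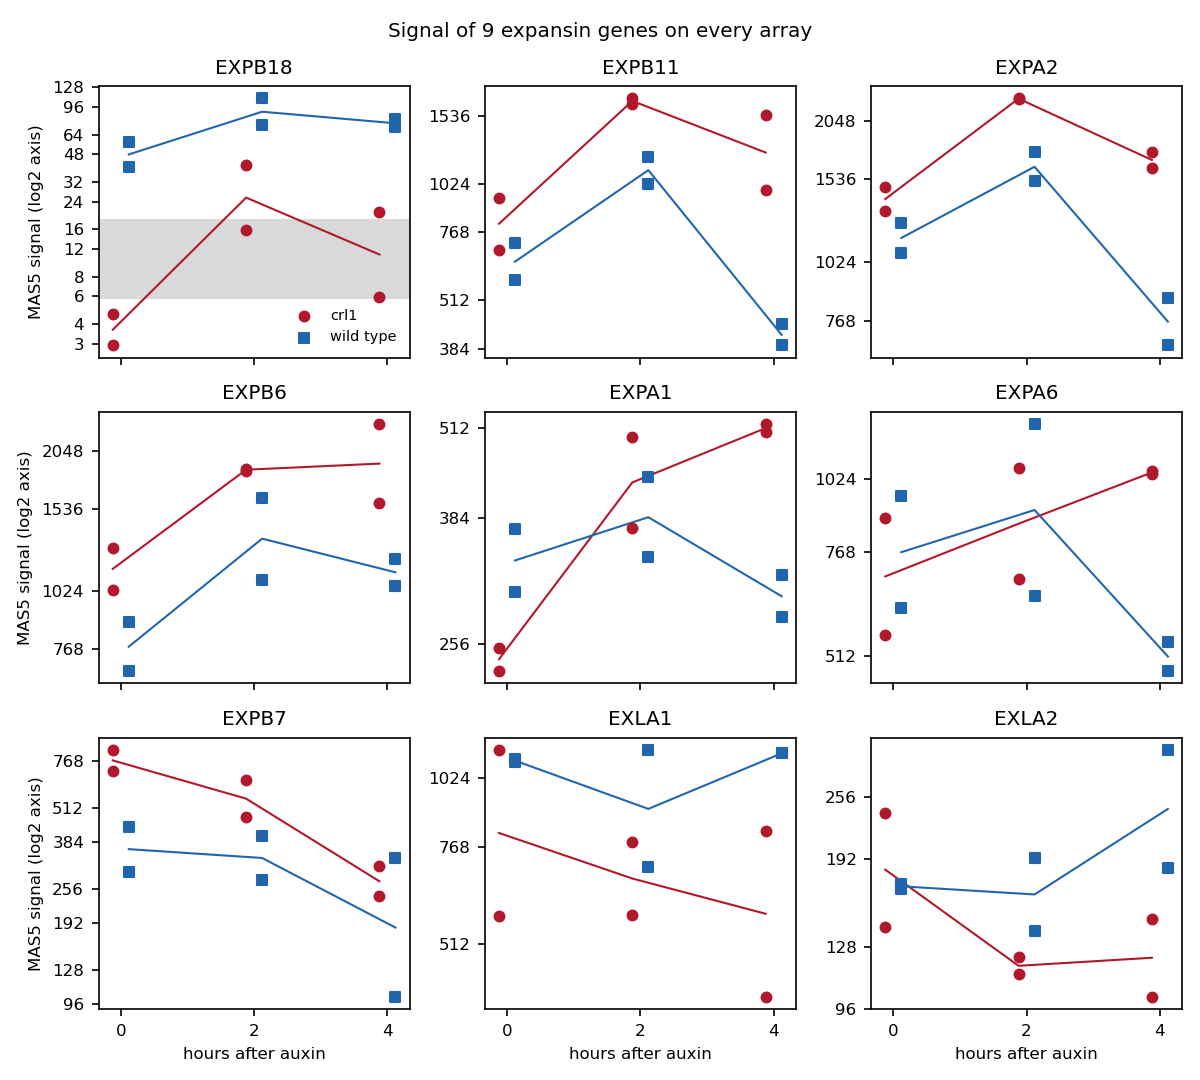
MAS5 signal (log2 axis) of 9 expansin genes against hours after auxin, with each array as a point, crl1 as red circles left of wild type as blue squares, and lines through the geometric means of 2 arrays; the grey band in the EXPB18 panel is the range of background over arrays. EXPB11 and EXPA2 show wild type at its lowest at 4 h, at 392 and 443 for EXPB11, and the crl1 arrays at 989 and 1537.

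The second comparison asked how the genotypes differed at each time. Before auxin 0 of 25 genes passed with limma (0.101% of probe sets did), and 3 had an unadjusted p under 0.05 (9.05% of probe sets). The 25 genes were spread on both sides of 0: 13 lay above it, with a median of 0.06, against -0.03 over all probe sets. These values turned on single arrays: 10 lay above 0, with a median of -0.22, without wild type repetition 1, and 19 did, with a median of 0.18, without wild type repetition 2. Without crl1 repetition 2 the median was -0.13, and with each array centred on its median it was -0.01. EXPB18 was nearest to the threshold at the model's -3.70 ± 0.59 (SE, n = 2 per group; limma adjusted p = 0.0587), and with the repetition as a block it passed at 0.0492. EXPB18 exceeded background on neither crl1 array at 0 h, and the -3.70 is no bound. Its adjusted p ran from 0.0326 to 0.392 over all alternatives, the highest without wild type 0 h repetition 1. EXPB2 (LOC4349348) gave 339 and 430 in crl1 against 93.0 and 170 in wild type, a difference of 1.60 ± 0.47 (adjusted p = 0.381). EXPB7 (LOC4331300) gave 846 and 707 in crl1 against 298 and 438 in wild type, a difference of 1.10 ± 0.46 (adjusted p = 0.523). In both genes the crl1 arrays lay above the wild-type arrays, as in 7 of the 25 genes and 18.3% of probe sets. The genes with crl1 below wild type and no overlap were 3 of 25, against 24.3% of probe sets.

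At 2 h 0 of 25 genes passed (0.0738% of probe sets did), and 4 had an unadjusted p under 0.05 (11% of probe sets). 11 genes lay above 0, with a median of -0.08, against 0.08 over all probe sets. Without wild type 2 h repetition 2, the array that stood apart, 17 lay above 0 and the median was 0.25. EXPB18 was at -1.81 ± 0.59 (limma adjusted p = 0.384). All 4 EXLA genes lay below 0, between -0.98 and -0.17, but without that array EXLA3 was at 0.11, EXLA4 at -0.06, EXLA1 at -0.07 and EXLA2 at -0.24. EXPB18 was then at -1.53 ± 0.73.

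At 4 h the genes leaned to one side. 19 of 25 lay above 0, with a median of 0.43, against 53.5% of all probe sets above 0 and a median of 0.03. Of the EXPA genes 8 of 10 lay above 0, of the EXPB genes 9 of 10 and of the EXLA genes 1 of 4, and XTH8 lay above 0 too. The number above 0 was 18 with each array centred on its median and 18 with quantile normalization. It was 15, with a median of 0.18, without wild type 4 h repetition 1 and 21, with a median of 0.56, without wild type 4 h repetition 2. The crl1 arrays lay above both wild-type arrays in 12 genes, against 23.5% of probe sets, and below both in 3, against 20.5%. None of the 25 passed over all probe sets with limma (0.0799% of probe sets did), and 9 had an unadjusted p under 0.05, against 7.36% of probe sets.

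The 3 largest differences upward at 4 h without overlap were those of EXPB11, EXPA2 and EXPA6. EXPB11 differed by 1.56 ± 0.25 (SE, n = 2 per group; limma adjusted p = 0.0633), 2.96-fold, and EXPA2 by 1.14 ± 0.19 (adjusted p = 0.0721), 2.21-fold. Over all alternatives the adjusted p ran from 0.0151 to 0.588 for EXPB11 and from 0.0128 to 0.628 for EXPA2. Both passed with quantile normalization, with array weights and without either wild type 2 h array, and in no other alternative; both p-values were highest without crl1 4 h repetition 1, and with median centring they were 0.129 and 0.116. EXPA6 (LOC4332763) gave 1057 and 1041 in crl1 against 541 and 483 in wild type at 4 h, a difference of 1.04 ± 0.35 (adjusted p = 0.538). At 0 h EXPA6 overlapped, with 557 and 877 in crl1 against 617 and 956 in wild type, and at 2 h it did so again, with 691 and 1067 in crl1 against 648 and 1267 in wild type.

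The 3 largest differences downward at 4 h without overlap were those of EXPB18, EXLA2 and EXLA1. EXPB18 was at -2.77 ± 0.59 (limma adjusted p = 0.202). EXLA2 (LOC4349265) gave 102 and 146 in crl1 against 319 and 184.5 in wild type at 4 h, a difference of -0.99 ± 0.33 (adjusted p = 0.53). EXLA1 (LOC4331516) gave 411 and 823 in crl1 against 1138 and 1137 in wild type, a difference of -0.97 ± 0.39 (adjusted p = 0.622). In EXLA1 the wild-type arrays were nearly equal at 4 h and the crl1 arrays lay well apart. At 0 h EXLA1 overlapped, with 576 and 1154 in crl1 against 1109 and 1098 in wild type, and at 2 h too, with 578 and 785 in crl1 against 706 and 1152 in wild type. EXLA2 gave 141 and 238 in crl1 against 172 and 167 in wild type at 0 h, with overlap, and 113 and 122 in crl1 against 138 and 193 in wild type at 2 h, without. EXLA3 (LOC4343213) stood on the other side at 4 h, with 176 and 154 in crl1 against 107 and 113 in wild type, a difference of 0.58 ± 0.23 (adjusted p = 0.622).

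**Figure D3:**
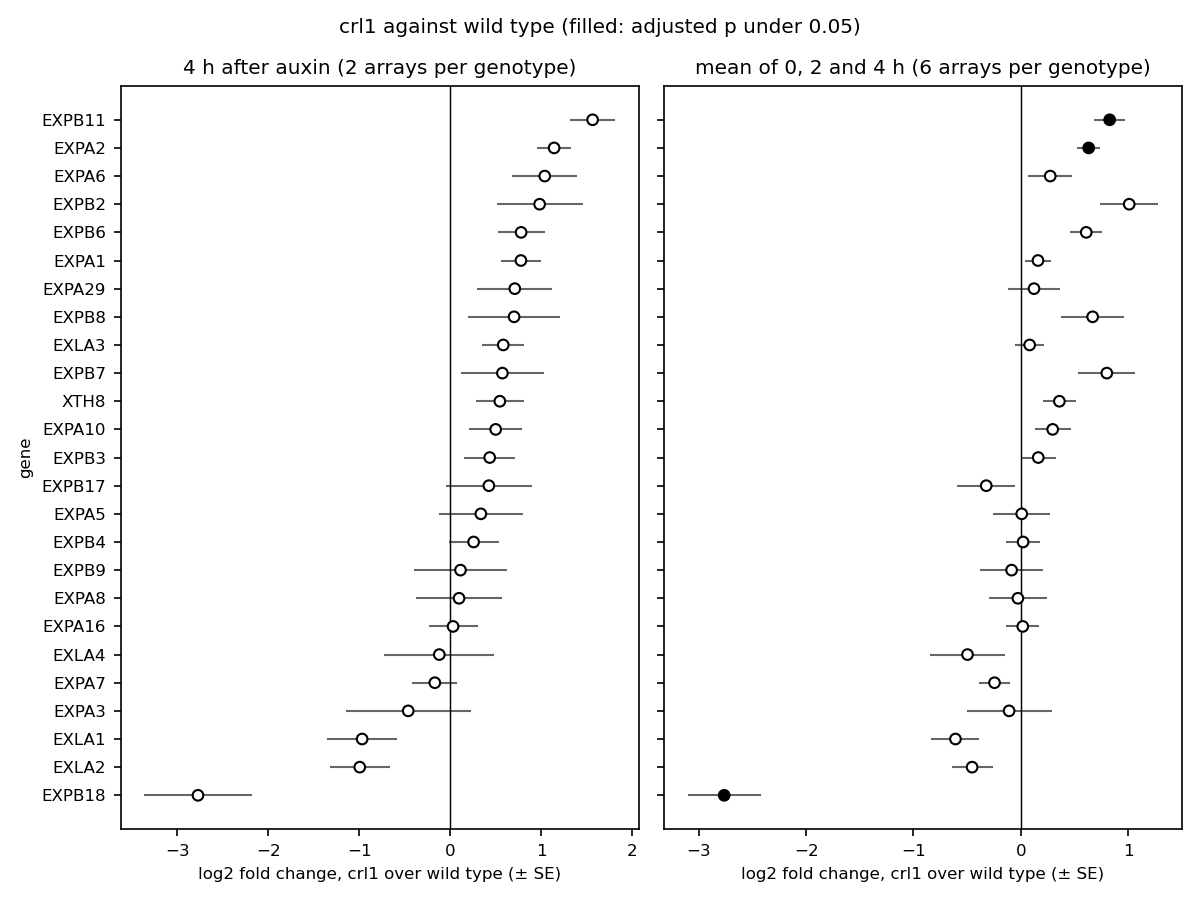
Log2 fold change, crl1 over wild type, of the 25 kept genes at 4 h (left, 2 arrays per genotype) and averaged over 0, 2 and 4 h (right, 6 arrays per genotype), as points with standard errors and ordered by the 4 h value; filled points have an adjusted p under 0.05. At 4 h 19 points lie right of 0 and none is filled, and in the average EXPB11, EXPA2 and EXPB18 are filled.

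The third comparison asked how the genes moved after auxin in each genotype. In crl1 at 2 h against 0 h, 0 of 25 genes passed with limma (0.04% of probe sets did) and 5 had an unadjusted p under 0.05 (5.1% of probe sets). 13 genes lay above 0, with a median of 0.16, which was -0.05 with each array centred on its median, 0.00059 without crl1 0 h repetition 1 and 0.05 without crl1 2 h repetition 2. In wild type at 2 h against 0 h, 0 of 25 passed (0.00307% of probe sets did) and 3 had an unadjusted p under 0.05 (7.8% of probe sets). There 19 genes lay above 0, with a median of 0.26, but without the array that stood apart 10 did and the median was -0.05. Without wild type 0 h repetition 1 it was 0.04, without 0 h repetition 2 it was 0.55 and without 2 h repetition 1 it was 0.64.

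EXPB11 at 2 h was above 0 h by 1.05 ± 0.25 in crl1 (limma adjusted p = 0.406) and by 0.79 ± 0.25 in wild type (adjusted p = 0.56). EXPA2 was above 0 h by 0.71 ± 0.19 in crl1 and by 0.50 ± 0.19 in wild type, and EXPB6 by 0.71 ± 0.26 in crl1 and by 0.77 ± 0.26 in wild type. For EXPB18 in crl1 no fold is given, because 1 of the 2 h arrays and both 0 h arrays did not exceed background, and in wild type it was above 0 h by 0.90 ± 0.59. Without the array that stood apart the wild-type values at 2 h were 0.67 ± 0.29 for EXPB11, 0.40 ± 0.20 for EXPA2, 0.48 ± 0.26 for EXPB6 and 0.62 ± 0.73 for EXPB18. These 4 genes were the ones in which the 2 h arrays lay above the 0 h arrays in both genotypes, as 4.01% of all probe sets did, and 0 genes showed the opposite, as 2.44% did. Averaged over the genotypes 0 of 25 passed at 2 h (0.126% of probe sets did) and 6 had an unadjusted p under 0.05 (6.55%), with EXPB11 nearest to the threshold at 0.92 ± 0.18 (adjusted p = 0.126), and at 0.86 ± 0.19 (adjusted p = 0.242) without the array that stood apart. EXPB18 was at 1.85 ± 0.42 (adjusted p = 0.226), the model's value with crl1 below background at 0 h.

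The same counts were made at 4 h. In crl1 at 4 h against 0 h, 14 of 25 genes lay above 0, with a median of 0.15 (0.09 over all probe sets), and in wild type 9 did, with a median of -0.17 (0.01 over all probe sets). The wild-type values turned on single arrays: 13 lay above 0, with a median of 0.03, without 0 h repetition 2, 12 without 4 h repetition 1, 6, with a median of -0.39, without 0 h repetition 1, and 6, with a median of -0.34, without 4 h repetition 2. With each array centred on its median, the median was 0.02 in crl1 and -0.27 in wild type. In crl1 0 genes passed with limma (0.0154% of probe sets did) and 6 had an unadjusted p under 0.05 (6.16%), and in wild type 0 passed (0.0184%) and 3 had one (6.89%). Without overlap, 11 genes in crl1 lay higher at 4 h than at 0 h (25.4% of probe sets) and 4 lower (13.8%). In wild type 4 lay higher (22% of probe sets) and 7 lower (20.4%).

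EXPA1 (LOC4335222) in crl1 gave 253 and 235 at 0 h, 497 and 372 at 2 h and 505 and 518 at 4 h. The 4 h arrays differed from the 0 h arrays by 1.07 ± 0.22 (limma adjusted p = 0.245). In wild type EXPA1 gave 303 and 370 at 0 h, 338.5 and 436.5 at 2 h and 279 and 319 at 4 h. There the 0 h arrays overlapped with those of both later times, and the 2 h arrays lay above the 4 h arrays. EXLA3 in crl1 gave 176 and 154 at 4 h against 84.0 and 90.2 at 0 h, a difference of 0.92 ± 0.23 (adjusted p = 0.38). In wild type EXLA3 gave 107 and 113 at 4 h against 88.5 and 108 at 0 h, with the arrays overlapping. EXPB18 in crl1 was the model's 1.59 ± 0.59 above 0 h at 4 h (adjusted p = 0.729), and no fold is given, because the 4 h mean does not exceed the background at 0 h.

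The largest changes downward in crl1 at 4 h without overlap were those of EXPB7, EXPB2 and EXLA4. In crl1 EXPB7 gave 846 and 707 at 0 h, 477 and 651 at 2 h and 241.5 and 311.5 at 4 h, a difference of -1.50 ± 0.46 at 4 h (limma adjusted p = 0.574). In wild type EXPB7 gave 298 and 438 at 0 h, 277 and 405 at 2 h and 102 and 334 at 4 h, a difference of -0.97 ± 0.46 with overlap. In crl1 the 2 h arrays of EXPB7 lay between those of 0 h and 4 h, with no overlap. EXPB2 in crl1 gave 339 and 430 at 0 h, 249 and 294 at 2 h and 259 and 186 at 4 h, a difference of -0.80 ± 0.47 at 4 h (adjusted p = 0.86). In wild type EXPB2 gave 93.0 and 170 at 0 h, 189 and 209 at 2 h and 61.0 and 202 at 4 h. At 4 h against 0 h the crl1 arrays of EXPB2 did not overlap, and the wild-type ones did. EXLA4 (LOC4342109), a dim gene, gave 11.9 and 17.1 at 4 h against 20.2 and 17.3 at 0 h in crl1, a difference of -0.39 ± 0.60 (adjusted p = 0.954).

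In wild type at 4 h against 0 h, the largest changes downward without overlap were those of EXPA5, EXPB11 and EXPB9. EXPA5 (LOC4330706) gave 102 and 133.5 at 4 h against 151 and 246 at 0 h, a difference of -0.72 ± 0.46 (limma adjusted p = 0.841). EXPB11 gave 392 and 443 at 4 h against 577 and 719 at 0 h, a difference of -0.63 ± 0.25 (adjusted p = 0.658). EXPB9 (LOC4349301), near background, gave 9.19 and 7.66 at 4 h against 11.4 and 14.5 at 0 h, a difference of -0.62 ± 0.51 (adjusted p = 0.897). The largest changes upward were those of EXPB18 at 0.66 ± 0.59, EXPB6 at 0.53 ± 0.26 and EXLA2 at 0.52 ± 0.33, with adjusted p-values of 0.915, 0.757 and 0.842.

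XTH8 (LOC4345019) was the only gene of the 25 with 4 h arrays below 0 h arrays in both genotypes, an order that 4.54% of all probe sets showed. In crl1 it gave 1813 and 2261 at 0 h, 2092 and 2446 at 2 h and 1468 and 1680 at 4 h. In wild type it gave 1533 and 1699 at 0 h, 1525 and 2519 at 2 h and 912 and 1270 at 4 h. Averaged over the genotypes XTH8 differed by -0.48 ± 0.18 (SE, n = 4 arrays per time; limma adjusted p = 0.472). EXPB6 and EXPB18 had 4 h arrays above 0 h arrays in both genotypes (7.11% of probe sets), EXPB6 by 0.64 ± 0.18 (adjusted p = 0.247) and EXPB18 by the model's 1.12 ± 0.42. For EXPB18 in crl1 that order is partly among signals below background, at 0 h and on 1 array at 4 h, and shows no rise. In that average 0 of 25 genes passed (0.455% of probe sets did) and 6 had an unadjusted p under 0.05 (8.83%).

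**Figure D4:**
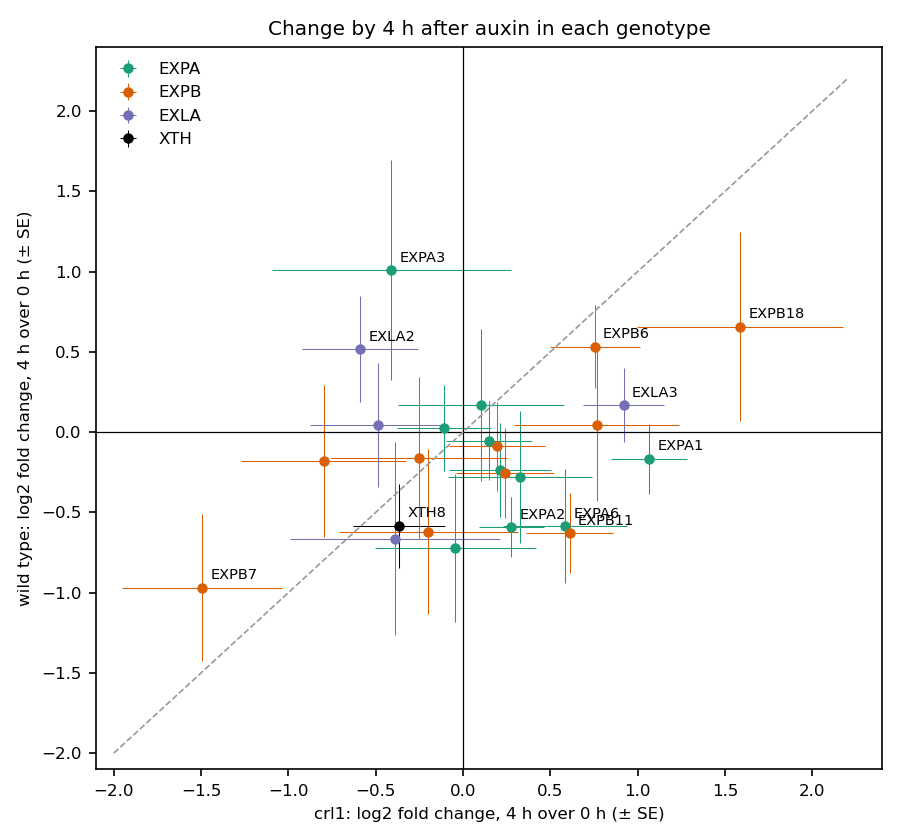
Log2 fold change at 4 h against 0 h in crl1 (x axis) and in wild type (y axis) for the 25 kept genes, coloured by family, with standard errors from 2 arrays per group; the dashed line marks equal changes. EXPB11, EXPA2 and EXPA6 lie right of 0 and below 0, EXLA2 lies on the opposite side, and EXPB7 is below 0 in both genotypes.

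The last comparison asked whether the change by 4 h differed between the genotypes. The difference of the responses, crl1 minus wild type, was above 0 in 17 of 25 genes, with a median of 0.28 (0.07 over all probe sets). With 1 array left out the number ran from 14, without wild type 4 h repetition 1, to 21, without wild type 4 h repetition 2, and the median from 0.14, without wild type 0 h repetition 2, to 0.63, without wild type 0 h repetition 1. In 4 of the 25 genes the arrays at 4 h lay on opposite sides of those at 0 h in the genotypes with no overlap, against 5.64% of probe sets, and at 2 h in 1 gene, against 5.48%. It was 1.24 ± 0.35 for EXPB11, 1.23 ± 0.31 for EXPA1, 1.17 ± 0.50 for EXPA6 and 0.87 ± 0.26 for EXPA2. It was 0.75 ± 0.33 for EXLA3 and -1.11 ± 0.47 for EXLA2. These 6 genes had an unadjusted p under 0.05, against 3.35% of all probe sets, and 0 of 25 passed with limma, as did 0% of all probe sets (adjusted p = 0.99 for each). For the 2 h responses 12 of 25 lay above 0, with a median of -0.06 (0.10 over all probe sets), 1 had an unadjusted p under 0.05 (5.63%) and 0 passed (0% of probe sets). That gene was EXPB18, at the model's 1.89 ± 0.83 (adjusted p = 0.869). Without the array that stood apart, 19 of 25 lay above 0 at 2 h, with a median of 0.28, and 6, with a median of -0.41, without wild type 2 h repetition 1. Without wild type 0 h repetition 1 the median was 0.11 and without 0 h repetition 2 it was -0.24, and with quantile normalization it was 0.14.

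Some genes ran in parallel over the 12 arrays, which share their extracts and so give a description only. EXPA2 and EXPB11 had the closest pair of profiles, with a Pearson r of 0.976 in log2 signal. Other pairs above 0.8 included EXPB3 with EXPB4 and EXPB3 with EXPA6 at 0.871, EXPB4 with EXPA5 at 0.869, EXPB7 with EXPB2 at 0.836, EXPA2 with EXPA10 at 0.829, EXPA6 with EXPA29 at 0.822 and EXLA1 with EXLA2 at 0.816. EXPB3, EXPB4, EXPA5, EXPA6 and EXPA29 had their highest signals on the array that stood apart, and r was not computed without it. EXLA2 and EXPB11 ran most in opposition, at -0.814, and the median over all 300 pairs was 0.23. EXPB18 had no close partner: its highest r was 0.448, with EXLA1. EXPB6, EXPB2, EXPB3 and EXPB4 are neighbours in the gene table with 0 protein-coding genes between them. Their r was 0.394 for EXPB6 with EXPB2, 0.253 for EXPB2 with EXPB3 and 0.871 for EXPB3 with EXPB4. EXPB8 and EXPB7, also neighbours, had an r of 0.648. Before auxin EXPB7, EXPB2 and EXPB8 lay above wild type in crl1 by 1.10 ± 0.46, 1.60 ± 0.47 and 0.79 ± 0.51. None of these differences passed with limma (adjusted p = 0.523, 0.381 and 0.66). For EXPB8 the difference was 1.47 in repetition 1 and 0.115 in repetition 2.

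The rest of the kept genes varied without a call in any comparison. EXPA10 (LOC4336776), a gene induced by aluminium in rice root tips, ran from 357 to 535 in crl1 and from 248 to 529 in wild type. EXPA8 (LOC4327217), known from rice roots, ran from 31.0 to 72.8 in crl1 and from 31.3 to 82.6 in wild type. EXPA3 (LOC4338278) lay near background, and its averaged difference was -0.11 ± 0.40. EXPA7, EXPA16, EXPA29, EXPB8 and EXPB17 had averaged differences of -0.24, 0.02, 0.12, 0.67 and -0.32. Without the array that stood apart these were -0.18, 0.15, 0.31, 0.56 and -0.04.

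Other wall genes were counted from lists of gene symbols. At 4 h, crl1 lay above wild type in all 9 cellulose synthases (CESA), with a median of 0.61, against 53.5% of all probe sets. It did so in 14 of 18 cellulose synthase-like genes (CSL, makers of wall matrix polysaccharides), with a median of 0.26. It also did so in all 5 genes matched to the COBRA family by name, with a median of 0.43. The name BC1 matched both LOC4333114 and LOC4347540, and whether each belongs to that family was not checked. The same held for 6 of 11 endo-glucanase genes (GLU) and 2 of 3 pectin genes. Of all these wall genes 0 had a limma adjusted p under 0.05 at 4 h (0.0799% of probe sets did). At 4 h the genotypes overlapped in some of them, such as CESA4 and CESA7, and were apart in others, such as CESA5 and CESA6. The list counts are given with all arrays only. Averaged over the times 2 genes of these lists passed, where 1.38% of all kept probe sets did: GLU15 was higher in crl1 by 1.67 ± 0.24 (limma adjusted p = 0.00789), with 130 to 366 in crl1 against 64.1 to 123 in wild type. CSLC3, of the family that makes the xyloglucan backbone, was lower by the model's -2.90 ± 0.41 (adjusted p = 0.00732). All 6 crl1 arrays of CSLC3 lay at or below background, and the bound was at least 4.21-fold lower at 0 h. These 6 arrays also lay below the array's median, so CSLC3 was kept for the fit only through wild type, where it is high. XXT1, an enzyme of xyloglucan side chains, was at -0.11 ± 0.11 in the average, and SAUR39, of an auxin-responsive family, at -0.41 ± 0.32.

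Root markers were examined because crl1 is impaired in crown root formation and several expansins are root genes. Of 7 root markers 3 lay above 0 and 4 below in the average, with a median of -0.21, and 2 were called lower in crl1 (0.925% of probe sets were): PIN2, an auxin efflux carrier, at -1.79 ± 0.22 (limma adjusted p = 0.00349), and IRT1, an iron transporter, at -1.55 ± 0.28 (adjusted p = 0.0263). Neither exceeded background in crl1 at 0 h and 2 h, so both differences are the model's values and no bounds. At 0 h PIN2 was at least 3.17-fold lower. IRT1 lay below the array's median on every crl1 array, so it was kept for the fit only through wild type, where it is high. The summed signal of the 7 markers ran from 1209 to 1982 in crl1, with a median of 1405, and from 1061 to 1821 in wild type, with a median of 1528, and 3 of the 7 were above background on all arrays. These sums mostly reflect NIP2-1, which alone ran from 955.8 to 1608 in crl1 and from 794.5 to 1477 in wild type. The root hair marker CSLD1 lay below background on some arrays and ran from 5.73 to 13.1 in crl1 and from 2.03 to 15.2 in wild type. Photosynthetic leaf markers were counted for the shoot tissue in the samples. Over 5 genes they summed to 10640 to 15840 in crl1, with a median of 12810, and to 12750 to 23280 in wild type, with a median of 14690. The wild-type maximum came from the array that stood apart, where CAB2R gave 11200, against 4868 to 7749 on the other wild-type arrays. Among these markers RBCS was called lower in crl1 at -0.66 ± 0.12 (limma adjusted p = 0.0297). None of the 3 xylem, 4 shoot meristem, 1 phloem and 1 root hair markers passed in the average. The part of root or leaf tissue in the difference of EXPB18 was not tested.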

How the data were processed

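The deposited values are intensities, 1 linear MAS5 signal per probe set and array, made by the authors with Affymetrix Expression Console, per the submitters' processing notes, with the version not given in the sources used here. On every array the mean is 100 once the outer 2% of probe sets on either side are left out. RNA was labelled with the IVT Express protocol, per the labels' protocols. No detection calls were used here. Of 57194 rice probe sets, 32524 (16438 genes) exceeded the median of their array on at least 2 of 12 arrays and were kept.

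Log2 signals were fitted without further scaling by lmFit and eBayes (trend by intensity) of limma 3.58.1 under R 4.3.3, with 6 group means. Residual degrees of freedom were 6 and prior ones 4.79 in the median. Tests were two-sided. P-values were adjusted by Benjamini-Hochberg within each of 12 comparisons over all kept probe sets. The fit was tested on simulated data. Errors of log2 fold changes are standard errors of this model. Log2 fold changes come from the signals as deposited, also where these lie below background (the 95th percentile of 64 reporter probe sets). Only in folds written "at least" does a group with neither array above background enter at its background.

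Array values are given for genes past the threshold in any comparison, for the 3 largest rises and falls without overlap in 5 comparisons and for the 6 brightest probe sets. CSLC3, GLU15, PIN2, IRT1 and RBCS are named because they passed. Genes were found by symbol, without coordinates, and some wall lists matched only 1 gene: in them PRP19 and A15 (a photosystem gene under another name) matched by letters only and were left out. The genes, lists and tests were chosen with earlier results of these data known. The arrays are numbered by repetition, and the series describes independent repetitions of the experiment. The differences between repetitions correlated above 0.1 in 11 of 15 pairs of groups (0.00776 to 0.249), so the fit with repetition as a block was an alternative. The other alternatives were median centring, quantile normalization, a pseudocount of 16, other filters, array weights, all probe sets of a gene, the compared arrays alone, a random block and leaving out each array.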

Additional observations from a re-analysis of the deposited data

Results flagged for a closer look

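In 5 cases the arrays of crl1 moved one way after auxin and those of wild type the other, with no overlap between the times in either genotype; 4 of 25 genes did so at 4 h, against 5.64% of all probe sets, and 1 at 2 h, against 5.48%. At 4 h against 0 h crl1 was up and wild type down in all 4. The difference of the responses, crl1 minus wild type, was 1.24 log2 units for EXPB11, 1.17 for EXPA6 and 0.867 for EXPA2. For EXPB3 it was 0.499 ± 0.396 (SE). The wild-type arrays of EXPB3 gave 3787 and 3231 at 4 h against 3815 and 4581 at 0 h, a change of -0.26 ± 0.28. The fifth was EXPB2 at 2 h, with crl1 down and wild type up, at -1.16, and at -1.08 ± 0.76 without the array that stood apart. As 1 gene of 25, it is a smaller share than the 5.48% of all probe sets. The limma test of the difference passed for 0 of these 5, with adjusted p-values of 0.99 at 4 h and 0.869 for EXPB2 at 2 h. Groups of 2 arrays allow no check for single outlying arrays within a group.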

How the results depend on the processing

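In the comparison for which a gene was chosen, its fold change kept its sign under every alternative run. Where the choice was made for arrays that did not overlap, leaving out 1 array could not reverse the sign, so those fits do not test it. Medians over the 25 genes changed sign in several comparisons, as given with them above. EXPB18 averaged over the times passed in all 12 fits that left out 1 array (-3.06 to -2.47) and in the other alternatives that kept it, with adjusted p-values from 0.00155 to 0.0308; the filter at the 75th percentile dropped it. Of these 12 fits EXPA2 passed in 4 and EXPB11 in 6.

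Called genes averaged over the times were 3, 1 with the random block and 1 to 5 with 1 array left out. EXPB18 alone passed without repetition 1 of wild type 0 h, crl1 0 h, wild type 4 h or crl1 4 h, or without either crl1 2 h array, and 5 passed without wild type 4 h repetition 2, EXPB2 and EXPB7 being added. With repetition as a replicate block 4 passed in the average, EXPB2 being added, and 1 at 0 h, EXPB18; the block changed no other count. At 0 h 1 passed with median centring, 1 with the compared arrays alone and 0 to 1 with 1 array left out. At 4 h 2 passed with quantile normalization, 2 with array weights and 0 to 2 with 1 array left out, the 2 being EXPA2 and EXPB11. With 1 array left out the counts were 0 to 2 in the genotype comparison at 2 h, 0 to 3 in wild type at 2 h, 0 to 5 in both genotypes at 2 h, each highest without wild type 2 h repetition 1, and 0 to 1 in both genotypes at 4 h. In the fits without wild type 2 h repetition 1 only the array that stood apart represents its group, and it adds nothing to the spread: 3675 probe sets then passed in the average, against 449. Median centring lowered the median of all probe sets by up to 0.21 log2 units (crl1 at 2 h).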
